A study of Mus musculus with 2 samples.

Results

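The cells described here are 76 neurons of the E18 (embryonic day 18) mouse cortex that carried RNA of layer 6 corticothalamic genes. They were selected on the detected UMIs of 13 genes in 1 single-cell RNA-seq library. A cell needed 3 or more UMIs (unique molecular identifiers, 1 for each captured RNA molecule) of Neurod2 and Neurod6 together, which mark excitatory cortical neurons. It also needed a UMI of at least 2 of the 5 gate markers Tle4, Hs3st4, Syt6, Nxph3 and Crym. It could hold a UMI of at most 1 of the 6 excluding markers Etv1, Rprm, Grp, Tshz2, Rorb and Inhba. The 76 gated cells were 3.79% of the 2006 excitatory cells (exact Clopper-Pearson 95% interval 2.996 to 4.72) and 2.89% of the 2631 cells kept in the library.

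The library was made from CD1 mice, with no transgene named in the labels, from tissue above the lateral ventricles that held the cortex and its underlying germinal zone. Papain-dissociated cells had been sorted as negative for propidium iodide and positive for the nuclear dye DRAQ5, and the labels do not say how many animals were pooled. A second library of the series, from the germinal zone of P2 (postnatal day 2) Emx1Cre;R26Eyfp fl/fl mice, serves below only for 1 count. With 1 library there is no replicate, so no test could be run, and every interval covers counting error alone.

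Corticothalamic neurons are the main projection neurons of cortical layer 6 and send their axons to the thalamus, from which the cortex receives its sensory input. They are among the earliest neurons generated from the dorsal radial precursors, after the subplate and before the callosal neurons of the upper layers. TBR1, SOX5, ZFPM2 and FOXP2 are transcription regulators known for this identity, and FEZF2 and BCL11B for the subcerebral neurons of layer 5. Subplate neurons, which persist as layer 6b, lie just below layer 6 and share several of its genes.

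The gated cells held 641514 UMIs, with a median of 7931.5 per cell (3028 to 26856), and the 1930 other excitatory cells held 15019728, with a median of 6827.5. Levels below are CPM: the UMIs of a gene summed over a group of cells, scaled by all UMIs of that group to 1000000. The ratios are log2 of the gated cells over the other excitatory cells, with an exact conditional 95% interval in parentheses. The other excitatory cells were mixed: by fixed markers, 1155 were upper-layer-like, 317 newborn-like and 48 layer 5-like. Of the inhibitory neuron markers, 10 of 11 were at 0 UMIs in the gated cells, and 3 UMIs of Dlx1 were found. None of the 5 oligodendrocyte lineage markers had a UMI. Microglia markers had 2 UMIs and endothelial and mural markers 4. Of 6 hippocampal neuron markers, 4 were at 0 UMIs, and the summed level was 291.5 against 309 CPM. Spock1 had 120 against 30.2 CPM, in 41 gated cells, and Zbtb20 had 171.5 against 276, its 110 UMIs lying in 9 gated cells with up to 31 in 1. The part of hippocampal cells in the results was not tested.

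The genes that chose the cells are given as a description only. Tle4, a Groucho-type corepressor (GRCm38 chr19:14448150-14598051, minus strand), was detected in 71 gated cells with a median of 2 UMIs per cell and at most 8. Hs3st4, which encodes a heparan sulfate 3-O-sulfotransferase (chr7:123982869-124398989, plus strand), was detected in 65, also with a median of 2 and at most 9. Syt6, a synaptotagmin (chr3:103575231-103645569), was found in 43, Nxph3, a secreted neurexin ligand (chr11:95509845-95514570), in 42, and Crym, a thyroid hormone binding protein (chr7:120186380-120202111), in 30. All 5 are annotated as protein-coding genes. Tle4 and Hs3st4 were found together in 61 cells, and Nxph3 and Crym in 12. The cells held 2 markers in 20 cases, 3 in 20, 4 in 29 and all 5 in 7.

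Among the excluding markers, 66 of the 76 gated cells held Rprm, which encodes the p53-regulated protein Reprimo, 3 held Rorb, and 7 held none. Although it is an excluding marker, Rprm was higher in the gated cells, 644 against 230 CPM. Over all excitatory cells it stood at 158 CPM with 0 gate markers, 276.5 with 1 and 1064 with 5. As the rule used Rprm, these levels are a description. The rule removed 102 of the 178 excitatory cells that had 2 or more gate markers, or 57.3% (49.7 to 64.7). Of these 102, 101 held Rprm, and 66 held Rprm and 1 further excluding marker. The 69 cells just inside this limit, with 1 excluding marker, had 69.5 CPM of Foxp2 and 269 CPM of Sox5. The 67 cells just outside it, with 2, had 65.9 and 312 CPM. At the other edge, the 20 gated cells with exactly 2 gate markers had 42.1 CPM of Foxp2, and the 106 cells with 1 gate marker and at most 1 excluding marker had 15.4.

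The known corticothalamic regulators were, as a group, higher in the gated cells. Of 10 listed factors, 7 were at least 1.5-fold higher than in the other excitatory cells, 2 were at least 1.5-fold lower, and the median log2 ratio was 1.27. Over the 8191 genes measured, those averaging 10 CPM or more in both groups together, 16.3% were at least 1.5-fold higher and 10.6% lower, and the median was 0.05. The counts behind these shares, 1334 higher and 869 lower, put 60.6% of the differing genes on the higher side. TMM scaling shifted every ratio by -0.121, which left 1008 higher and 1183 lower, or 46.0% on the higher side. The ratios below are therefore best read against that shift. A gene could also pass this filter through 1 group alone and then had to differ: 373 of the 1334 higher genes had under 10 CPM in the others, and 261 of the 869 lower genes had under 10 CPM in the gated cells. Over the 7399 genes of 10 CPM or more in both groups, 13% were higher and 8.22% lower, with a median of 0.04. By that stricter count 5 of 8 corticothalamic factors were higher and 2 lower; Foxp2 and Zfpm2 are the 2 it leaves out.

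Foxp2, a forkhead factor of deep-layer neurons, had 63.9 CPM (45.9 to 86.7) in the gated cells and 8.06 (6.69 to 9.63) in the others, a log2 ratio of 2.99 (2.44 to 3.51). Its 41 UMIs came from 25 cells, with at most 4 in any 1 cell. The others include the 102 cells removed by the excluding markers, which held 64 of the 121 Foxp2 UMIs in that group. Zfpm2, a cofactor of GATA factors, had 40.5 against 5.46 CPM, a ratio of 2.89 (2.20 to 3.54), and was seen in 21 gated cells. Sox5, which restrains subcerebral identity in early-born neurons, had 257 against 52.4 CPM, a ratio of 2.30 (2.04 to 2.54). These 3 genes differed far beyond counting error, each by 4.91-fold or more.

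Tbr1, the T-box factor needed for layer 6 fate, was present in 61 of the 76 gated cells. Its level was 263 CPM (225 to 306) against 114 (108 to 119), a ratio of 1.21 (0.98 to 1.44). Lmo3, a LIM-only protein, had a ratio of 1.44 (1.15 to 1.71), and the nuclear factor I genes Nfia and Nfib had 1.34 (1.18 to 1.49) and 0.72 (0.62 to 0.81). Nfix lay close to the others at -0.12 (-0.23 to -0.02). The lower members were Nr2f1, an areal patterning factor, at -0.92 (-1.50 to -0.40), and Bcl11a, a zinc finger factor broadly expressed in cortical neurons, at -0.93 (-1.15 to -0.72). Summed over the list the difference was smaller, 4567 against 3423 CPM or 0.42 (0.36 to 0.47), and Nfib and Nfix made up 1618 and 1224 CPM of the sum in the gated cells.

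**Figure D1:**
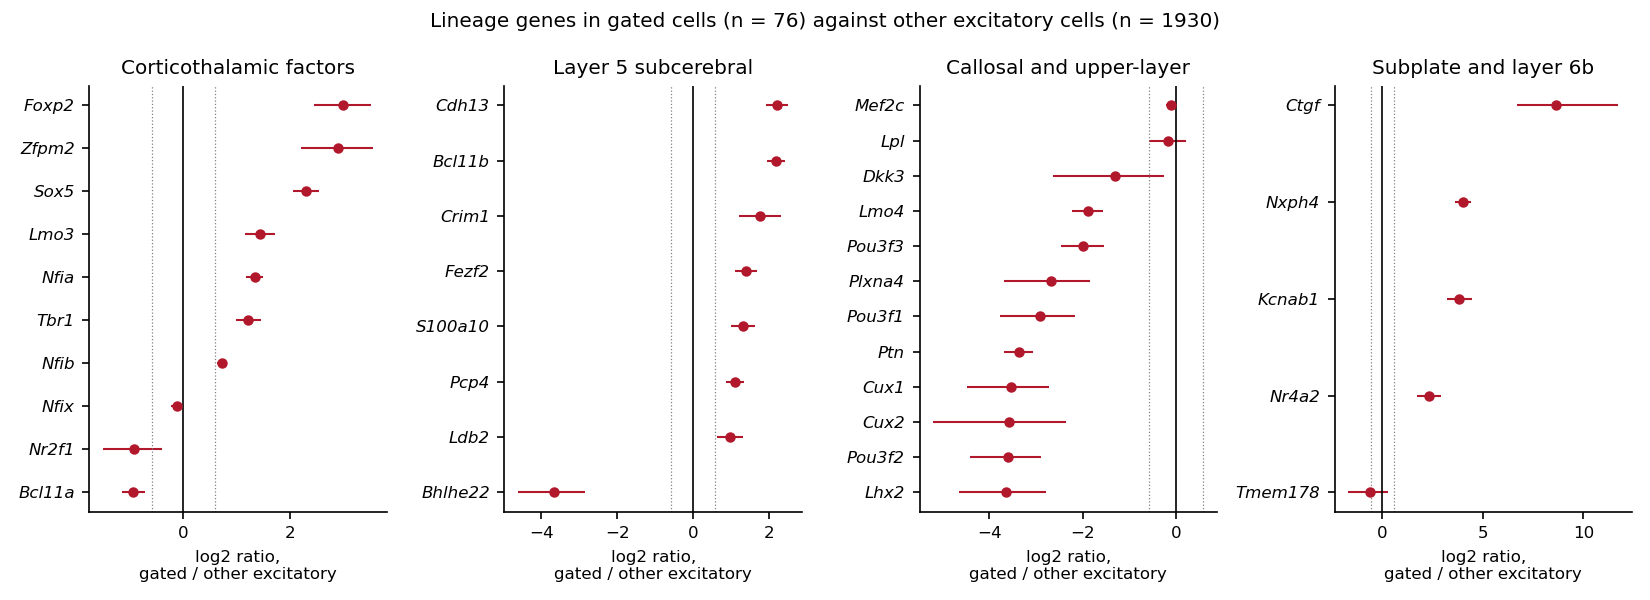
Log2 ratio of gated cells (n = 76) over other excitatory cells (n = 1930), 1 library, for the measured genes of 4 lists. Points are ratios of summed counts, bars are exact 95% intervals for counting error, and dotted lines mark 1.5-fold; not every measured gene is drawn. Foxp2, Zfpm2 and Sox5 lie highest among the corticothalamic factors, and all callosal and upper-layer genes drawn but Mef2c and Lpl lie beyond the lower line. Cplx3, with 0 UMIs in the other cells, is not drawn.

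Genes of callosal and upper-layer neurons were lower in the gated cells. Of 13 measured, 0 were 1.5-fold higher and 11 lower, with a median of -2.68, and of the 12 at 10 CPM or more in both groups 10 were lower. Lhx2, a LIM homeodomain factor, had 11 UMIs in 6 gated cells, 17.2 against 213 CPM, a ratio of -3.63 (-4.64 to -2.79). The POU factor Pou3f2 had a ratio of -3.60 (-4.41 to -2.90) and the cut-like homeobox genes Cux2 and Cux1 -3.58 (-5.20 to -2.35) and -3.53 (-4.48 to -2.72). Mef2c and Lpl were within 1.5-fold, at -0.12 and -0.17.

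The genes of layer 5 subcerebral neurons were mostly higher, not lower. Of 8 measured, 7 were at least 1.5-fold higher and 1 lower, with a median of 1.36. Cdh13, encoding T-cadherin, had a ratio of 2.22 (1.92 to 2.51), and Bcl11b, also known as Ctip2, had 276 against 60.3 CPM, a ratio of 2.19 (1.95 to 2.43). Crim1 had 1.77 (1.20 to 2.31) and Fezf2 1.39 (1.09 to 1.69). Bhlhe22, a basic helix-loop-helix factor, was the exception at -3.66 (-4.61 to -2.85). These ratios are against a comparison group made up largely of upper-layer-like cells. Bcl11b was also found in 45.1% of inhibitory cells thinned to 3000 UMIs, beside 50% of gated cells.

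Because depth and free RNA can set how often a gene is seen, each cell was also thinned to 3000 UMIs, which left out 0 gated cells, 43 other excitatory cells and 27 inhibitory reference cells. Tbr1 was then seen in 56.6% of gated cells (44.7 to 67.9), 27.1% of the others and 2.68% of inhibitory cells, and unthinned in 80.3%, 50.8% and 2.39%. Sox5 was seen in 50%, 11.1% and 3.13%, and Foxp2 in 18.4% (10.5 to 29.0), 2.33% and 3.57%. The Foxp2 share of the other excitatory cells was thus no higher than that of inhibitory cells, which had a median of 4895 UMIs before thinning. Inhibitory cells had more Foxp2, 29.1 against 8.06 CPM unthinned, so their share gives no level of free RNA for this gene. Unthinned, 86 of the other excitatory cells held Foxp2, and 39 of these were cells removed by the excluding markers. Lhx2 stood at 3.95%, 44.8% and 3.13%. At equal depth too, Tbr1, Sox5 and Foxp2 were seen in more of the gated cells and Lhx2 in fewer.

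Across all 2006 excitatory cells these genes graded with the number of gate markers detected. Foxp2 stood at 3.29 CPM in the 1677 cells with 0 gate markers and at 11.99, 42.3, 65.1, 81.9 and 66.2 CPM in cells with 1, 2, 3, 4 and 5. Sox5 went from 30.2 CPM at 0 to 326 at 4 and 239 at 5, and Tbr1 from 108 at 0 to 280 at 5. Lhx2 stood at 229, 199 and 35.6 CPM with 0, 1 and 2 markers and at 5.09 to 19.98 beyond, where its intervals overlapped. Fezf2 did not follow this order: it was highest at 2 markers, with 434 CPM, and was 248, 192 and 260 at 3, 4 and 5. Among the gated cells, the 56 with 3 or more gate markers had a median of 8089 UMIs and the 20 with 2 had 7072, and the part of depth in this order was not tested.

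**Figure D2:**
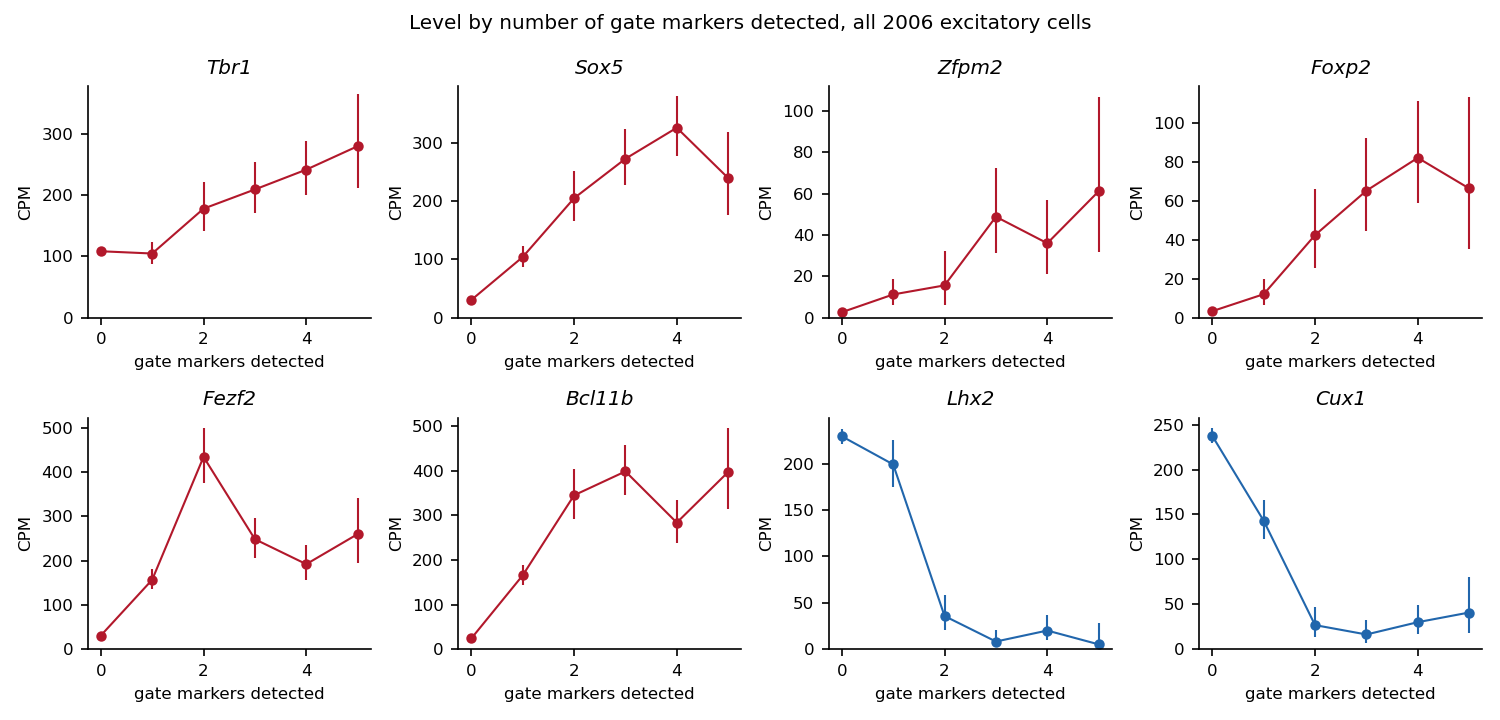
CPM of 8 genes that the rule did not use, by the number of gate markers detected (0 to 5), over all 2006 E18 excitatory cells, including those that the excluding markers removed. Bars are exact Poisson 95% intervals for counting error. Tbr1, Sox5, Zfpm2 and Foxp2 are lowest at 0 or 1 marker, Fezf2 is highest at 2, and Lhx2 and Cux1 are lowest from 2 on.

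Set against each kind of neighbour, the pattern depended on the gene. Against the 48 layer 5-like cells the corticothalamic factors summed to a ratio of 0.96 (0.86 to 1.05), with Foxp2 at 3.67 (2.02 to 6.002), Nfia at 2.41 (2.03 to 2.81) and Tbr1 at 1.71 (1.24 to 2.20). Fezf2 was near those cells, -0.31 (-0.70 to 0.08), while Bcl11b was higher at 1.00 (0.62 to 1.40). Against the 1155 upper-layer-like cells Foxp2 reached 4.96 (4.14 to 5.83), Bcl11b 4.43 (4.09 to 4.78) and Sox5 3.42 (3.12 to 3.71). Against the 317 newborn-like cells the summed factors were lower, -0.21 (-0.27 to -0.15), with Nfib at -0.41 and Nfia at 0.08 (-0.09 to 0.26), yet Zfpm2 was 3.60 (2.29 to 5.17) and Sox5 2.28 (1.91 to 2.66). The summed list was thus below the newborn-like level, whereas Zfpm2, Sox5 and also Foxp2, at 2.32 (1.55 to 3.12), were above it. Cux1, Cux2 and Pou3f2 helped to define the upper-layer-like group, so their ratios against it were set by that choice.

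A ranking of all genes by the bound of the interval nearest 0, among genes of 50 CPM or more in either group, gave 12 highest genes, among them Ctgf, Snhg11, Rprml, Cryab, Drd1, Fxyd7, Ramp3, Nxph4, Igfbp3, Kcnab1 and Cdkn1a. Rprml, a relative of the excluding marker Rprm, had 108 against 2.33 CPM, a ratio of 5.53 (4.92 to 6.16). Ramp3, an accessory protein of calcitonin-family receptors, had 78 UMIs in 39 gated cells, a ratio of 4.22 (3.77 to 4.66). Igfbp3, which binds insulin-like growth factors, was the most widely seen of the 12, in 47 cells, with a ratio of 3.89 (3.54 to 4.24). Drd1, the dopamine D1 receptor gene, had 60.8 against 2.46 CPM, a ratio of 4.63 (3.94 to 5.31). For all 12 the interval lay above 0 against each of the 3 comparison groups as well. Those groups are parts of the cells against which the genes were ranked, so this is a description only. They also leave out the 102 cells removed by the excluding markers, since they allow at most 1 gate marker. Of the UMIs in all other excitatory cells, the removed cells held 77 of 98 for Ramp3 and 117 of 175 for Igfbp3. For Fxyd7 they held 101 of 141 and for Drd1 24 of 37. They held 5 UMIs of Cryab and 0 of Ctgf.

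Drd1 and Ppp1r1b, which encodes the phosphoprotein DARPP-32, also serve as markers of striatal neurons. Ppp1r1b had 273 against 32.5 CPM, a ratio of 3.07 (2.81 to 3.32). Of the other striatal markers, Isl1, Rarb and Drd2 had 0 UMIs in the gated cells, Ebf1 had 1, and Foxp1 and Meis2 had ratios of -0.81 and -1.18. The Drd1 and Ppp1r1b levels therefore did not come with the rest of that list.

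The 12 lowest genes were Ptn, Pou3f2, Bhlhe22, Lhx2, Cux1, Pantr1, Cux2, Mdk, Gabra2, Unc5d, Pou3f1 and Ttc28. Ptn and Mdk encode the related heparin-binding growth factors pleiotrophin and midkine. Ptn had 137 against 1405 CPM, a ratio of -3.36 (-3.68 to -3.06), and was detected in 22 of 76 gated cells and in 90.4% of the others. Mdk had a ratio of -3.05 (-3.89 to -2.33). Gabra2, the alpha-2 subunit of the GABA-A receptor, had 20.3 against 174 CPM, a ratio of -3.10 (-4.01 to -2.32). Against the 3 comparison groups taken singly, 8 of the 12 had intervals below 0 in each, and Cux1, Cux2, Mdk and Unc5d did not. This count is a description only, since the groups are parts of the cells against which the genes were ranked. Pou3f2, among the 8, also helped to define the upper-layer-like group.

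**Figure D3:**
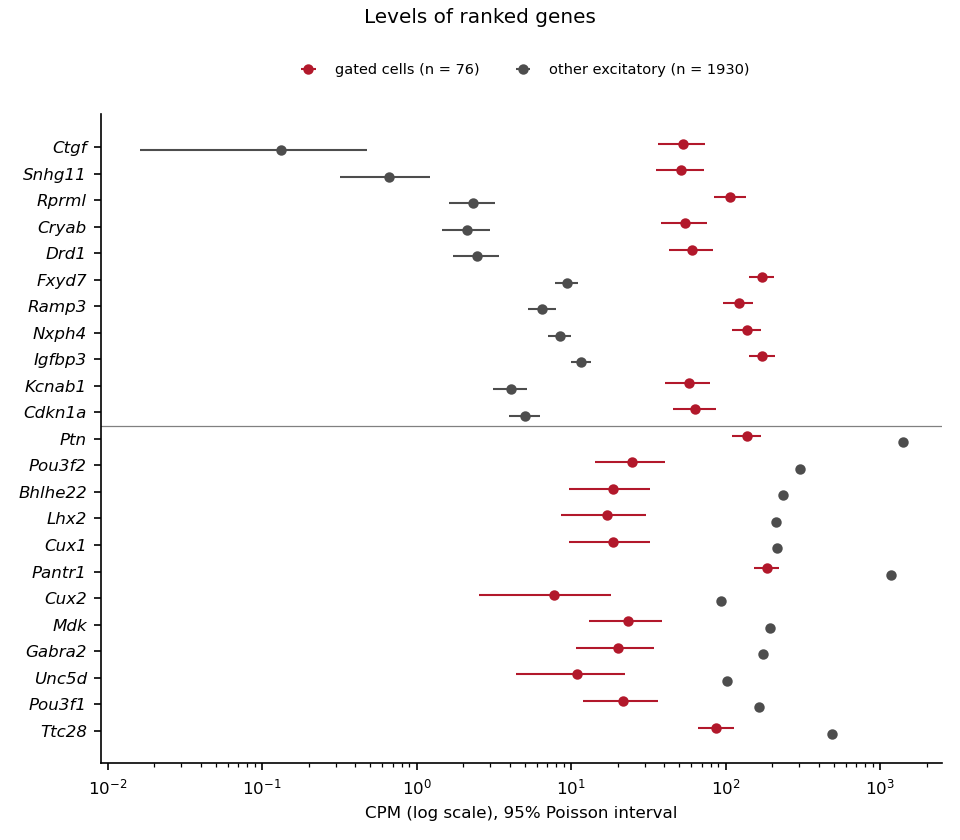
Levels (CPM, log axis) of 11 of the 12 highest and the 12 lowest ranked genes in gated cells (n = 76) and other excitatory cells (n = 1930). Bars are exact Poisson 95% intervals for counting error, and where none is visible it is narrower than the point. The widest gap is that of Ctgf, 53.0 against 0.133 CPM, which rests on 34 UMIs and 2 UMIs.

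Ctgf, which encodes a matricellular growth factor, is a marker of subplate and layer 6b, and the list of 10 such genes divided the gated cells. The summed level of all 10 was 354 against 47.5 CPM, or 2.90 (2.67 to 3.11). Of the 6 that averaged 10 CPM or more, 5 did so only through the gated cells, so no count or median is given for the list. Ctgf had a ratio of 8.64 (6.67 to 11.7), from 34 UMIs in 8 gated cells and 2 UMIs in all others. Nxph4, a neurexophilin, had 88 UMIs in 37 gated cells, a ratio of 4.02 (3.61 to 4.42). Kcnab1, a potassium channel beta subunit, had 3.83 (3.20 to 4.44) and the orphan nuclear receptor gene Nr4a2 2.33 (1.70 to 2.92), though Nr4a2 was at -0.59 (-2.88 to 0.99) once the 11 cells described next were left out. Cplx3, a complexin, had 13 UMIs in 3 gated cells, 11 of them in 1 cell, and 0 in the others, so its log2 ratio has a lower bound only, 6.16. Tmem178 was lower at -0.63 (-1.71 to 0.26). Moxd1, Lpar1, Inpp4b and Cdh18 had 1, 7, 3 and 5 UMIs in the gated cells.

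These genes were concentrated in few cells. Of the 76 gated cells, 26 held none of the 10 genes, 26 held 1, 12 held 2, 1 held 3, and 11 held 4 or more. Only 1 of the 1930 other excitatory cells held 4 or more, and it was 1 of the 102 cells that the excluding markers removed. The limit of 4 was set after these counts had been seen. The 11 cells were deeper, with a median of 11790 UMIs (6278 to 17908) against 7429 in the other 65, and the part of depth in their counts was not tested. Since these 10 genes chose the 11 cells, their detection there is a description: Ctgf was found in 7 of the 11 and in 1 of the 65, and Nxph4 in all 11 and in 26 of the 65.

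**Figure D4:**
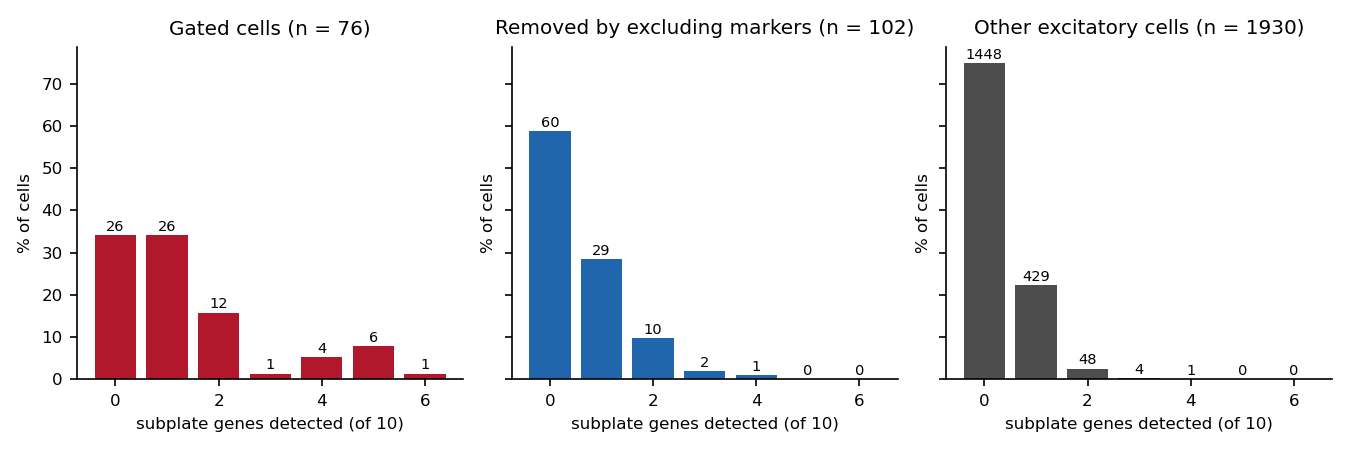
Percent of cells by how many of 10 subplate and layer 6b genes were detected, in the 76 gated cells, the 102 cells removed by the excluding markers, and all 1930 other excitatory cells, which include those 102. Numbers above bars are cells. The gated cells have a second group at 4 to 6 genes, of 11 cells, with 1 cell at 3.

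Among genes that neither the rule nor this split used, the 11 cells had Tbr1 at the level of the other 65 and less Foxp2 and Fezf2. Tbr1 had 265 CPM in the 11 and 263 in the 65, a log2 ratio of 0.01 (-0.56 to 0.54), and Sox5 and Bcl11b also had intervals across 0. Foxp2 had 1 UMI in the 11 cells against 40 in the 65, that is 7.16 and 79.7 CPM, a ratio of -3.48 (-8.82 to -0.92). Fezf2 was 35.8 against 201 CPM, a ratio of -2.49 (-4.15 to -1.22). The gate markers are given as a description, since every cell had to hold 2 of the 5. Tle4 was in 11 of the 11 and 60 of the 65, Hs3st4 in 10 and 55, Nxph3 in 10 and 32, Syt6 in 2 and 41, and Crym in 0 and 30.

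Several genes of the ranking above were concentrated in these 11 cells. Snhg11, a small nucleolar RNA host gene, had 31 of its 33 UMIs there. Without the 11 cells its ratio against the others was 2.58 (-0.65 to 4.81), and its level in inhibitory cells was 84.2 CPM. Rprml had 329 CPM in the 11 and 45.8 in the 65, Cryab, a small heat shock protein gene, 179 and 19.9, and Cdkn1a, the p21 gene, 222 and 19.9. For Ramp3 and Igfbp3 the ratio of the 11 over the 65 had an interval across 0, at -0.48 (-1.46 to 0.40) and -0.26 (-1.02 to 0.44).

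Among the 8 genes ranked lowest in the 11 cells against the 65 were Npy, Nts, Tcf4 and Sox4, picked for description after their values were seen. Npy, which encodes neuropeptide Y, had 1 UMI in the 11 and 696 in the 65, or 7.16 against 1387 CPM, a ratio of -7.60 (-12.9 to -5.12). Its counts were uneven even so: they came from 36 gated cells, with 117 in 1 cell. Nts, encoding neurotensin, had 0 UMIs in the 11 and 353 in 12 of the 65, with 132 in 1 cell, so its difference rests on few cells. Tcf4 and Sox4, transcription factor genes active in young neurons, had 64.4 against 857 and 372 against 1774 CPM. In the 102 removed cells Npy stood at 1358 CPM, close to the 65, and Nts at 1394 CPM, above their 703.5, and over all other excitatory cells they stood at 383 and 144 CPM.

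**Figure D5:**
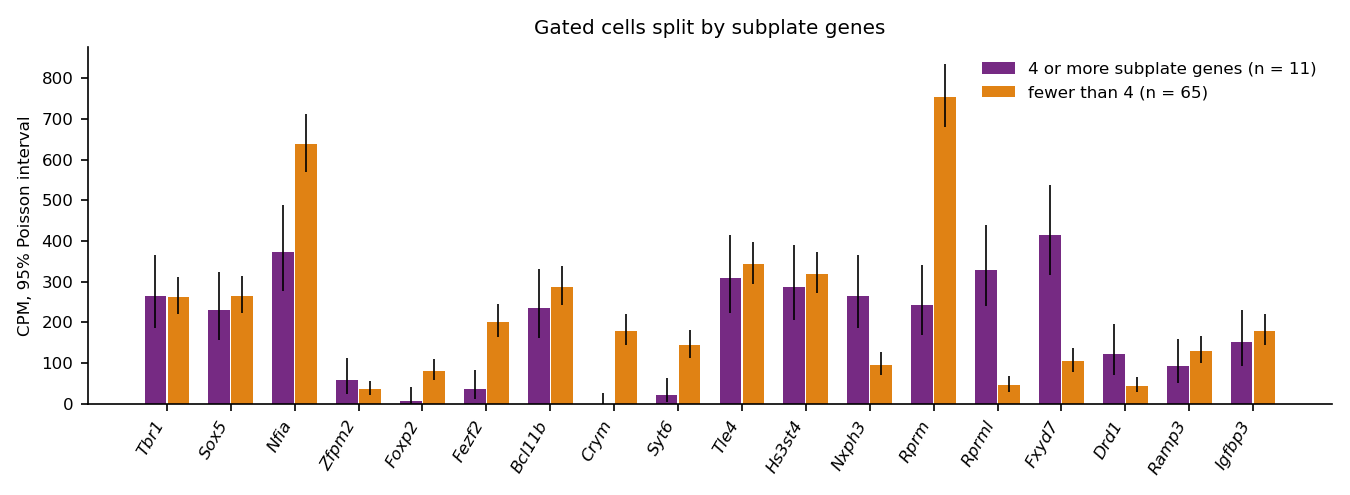
CPM of selected genes in the 11 gated cells with 4 or more subplate genes and in the other 65. Bars are summed levels with exact Poisson 95% intervals for counting error. Tbr1, Sox5, Tle4 and Hs3st4 have overlapping intervals, Foxp2, Fezf2, Crym, Syt6 and Rprm are lower in the 11, and Rprml and Fxyd7 are higher. Tle4, Hs3st4, Nxph3, Syt6, Crym and Rprm belong to the rule and are shown as a description.

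Without the 11 cells, the summed corticothalamic factors had a ratio of 0.50 (0.44 to 0.56) and the subplate list 1.61 (1.25 to 1.96), down from 2.90. Ranked the same way, the 12 highest genes of the remaining 65 cells were Ramp3, Igfbp3, Kcnip2, Lgi1, Fxyd7, Akap7, Kctd12, Foxp2, Nxph4, Ppp1r1b, Necab1 and Timp3, of which 4 had been in the first ranking. Kcnip2, which encodes a potassium channel interacting protein, had 42 UMIs in the 65 and 0 in the 11, a ratio of 3.94 (3.37 to 4.49) against the others. Lgi1, a secreted synaptic protein gene, had 3.54 (3.01 to 4.05), and Akap7, an anchoring protein of protein kinase A, had 265 UMIs and a ratio of 3.15 (2.95 to 3.35). Ramp3 and Foxp2 stood at 4.31 (3.84 to 4.78) and 3.31 (2.75 to 3.83). Of the 12 lowest genes, 11 stayed the same, with Plxna4 in place of Pou3f1.

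The 102 cells removed by the excluding markers held Foxp2 and Sox5, which the rule did not use, at levels close to those of the gated cells. Foxp2 was at 64.2 CPM in them and 63.9 in the gated cells, and Sox5 at 272 and 257. Fezf2 and Bcl11b were higher in the removed cells, at 359 against 165 and 395 against 276 CPM, whereas Tbr1, at 191 against 263, and Nxph4, at 32.1 against 137, were lower. Ctgf had 0 UMIs in the removed cells. When each excitatory cell was joined to its 15 nearest cells by expression, with the 13 genes of the rule left out, a mean of 38.1% of the neighbours of a gated cell were gated and 46.0% were removed cells. Together these were 84.0% of neighbours and 8.87% of all excitatory cells. The 11 subplate-gene cells had 57.6% gated and 33.3% removed neighbours, and 35.8% were among themselves.

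Genes of synaptic transmission were higher in the gated cells more often than lower, as were genes in general before TMM scaling. For this and the following lists, the shares over all genes measured were 16.3% higher and 10.6% lower. Over all genes at 10 CPM or more in both groups they were 13% and 8.22%. The list counts were not repeated with TMM scaling. Of 17 measured glutamate receptor and vesicle loading genes, 8 were 1.5-fold higher and 1 lower, with a median of 0.48, and of the 12 at 10 CPM or more in both groups 4 were higher and 0 lower. The vesicular glutamate transporters went opposite ways: Slc17a7 (VGLUT1) had 51.4 against 9.52 CPM, a ratio of 2.43 (1.84 to 2.99), and Slc17a6 (VGLUT2) had 2 UMIs, a ratio of -3.21 (-6.26 to -1.35). Slc17a7 passed the filter only through the gated cells and Slc17a6 only through the others, so each had to differ in its direction. The kainate receptor gene Grik3 had 3.39 (2.70 to 4.04) and the metabotropic receptor gene Grm3 2.59 (2.03 to 3.11). Of 23 presynaptic release genes, 14 were higher and 1 lower, with a median of 0.70. Snap25, a SNARE protein gene, had 437 against 110 CPM, a ratio of 1.99 (1.80 to 2.18), and Syt4, a synaptotagmin, was the lower one at -2.29 (-2.68 to -1.93).

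Channel and receptor genes followed a like count. Of 28 ion channel genes, 15 were higher and 2 lower, with a median of 0.77, and 8 of the 15 passed the filter only through the gated cells. Of the 20 channel genes at 10 CPM or more in both groups, 7 were higher and 2 lower. The list was led by Kcnip2 at 3.58 (3.01 to 4.14), Kcnip1 at 2.09 and the sodium channel gene Scn2a at 1.48. Kcnip2 and Kcnip1, at 5.46 and 4.39 CPM in the others, are among the 8 that passed only through the gated cells. Kcnip1 had 18.7 CPM in the gated cells and 85.0 in inhibitory cells. Of 20 transmitter and trophic receptor genes, 12 were higher and 3 lower, with a median of 0.80. Ngfr, Htr1f, Adrb1 and Drd1 passed only through the gated cells, and of the 15 receptor genes at 10 CPM or more in both groups 8 were higher and 2 lower, with a median of 0.63. The neurotrophin receptor gene Ngfr had 15 UMIs in 12 gated cells and 11 UMIs in the others, a ratio of 5.00 (3.78 to 6.26). The serotonin receptor gene Htr1f had 3.96 (3.07 to 4.83) and the adrenergic receptor gene Adrb1 3.55 (2.51 to 4.52). Ntsr1, the neurotensin receptor gene used as a mark of mature corticothalamic neurons, had 31 UMIs in 27 gated cells, a ratio of 1.18 (0.60 to 1.72).

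Cytoskeletal genes mostly lay within 1.5-fold: 6 of 24 were higher and 0 lower, with a median of 0.16. All 24 had 10 CPM or more in both groups, so 25% were higher, beside 13% of all such genes. Gap43, a growth cone protein gene, had a ratio of 1.18 (1.09 to 1.27) and the intermediate filament gene Ina 1.24 (1.06 to 1.41). Of 31 adhesion genes, 13 were higher and 6 lower, or 12 and 3 of the 27 at 10 CPM or more in both groups. The cadherin gene Cdh9 had 18 UMIs in 15 gated cells and 23 in all others, a ratio of 4.20 (3.22 to 5.15), and Flrt3, a latrophilin ligand gene, had 1 UMI, a ratio of -3.78 (-9.09 to -1.29). Cdh9 passed the filter only through the gated cells, and Flrt3 only through the others. Axon guidance genes were split, with 7 of 22 higher and 9 lower, a median of 0.14. Over the 19 at 10 CPM or more in both groups, 4 were higher and 9 lower, and the median turned to -0.45. The ephrin gene Efna5 was among the higher, 1.59 (1.09 to 2.06), and the netrin receptor gene Unc5d, the plexin gene Plxna4 and the semaphorin gene Sema3c were the lowest, at -3.23, -2.68 and -1.95.

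Close relatives of the gate markers did not share 1 direction. In the Groucho family Tle1 and Tle3 were lower, -2.21 (-3.43 to -1.23) and -3.21 (-5.49 to -1.65), while Aes and Tle2 were within 1.5-fold and Tle6 had 0 UMIs in the gated cells. Among the 3 measured sulfotransferase relatives of Hs3st4, Hs3st5 and Hs3st2 were higher, at 2.46 (1.74 to 3.13) and 1.23 (0.39 to 1.97), and Hs3st1 was lower, -1.63 (-2.39 to -0.97). Of the 16 Hs3st2 UMIs, 10 lay in the 11 subplate-gene cells, and without those cells its ratio was 0.17 (-1.30 to 1.32). Among synaptotagmins other than Syt6, 4 of 8 were higher and 1 lower, with Syt3 at 1.43 and Syt7 at 1.02 on the higher side. Nxph4 was the 1 measured relative of Nxph3.

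Genes of newborn migrating neurons were lower: 0 of 11 were higher and 9 lower, with a median of -1.95, or 6 lower of the 8 at 10 CPM or more in both groups. Neurog2 and Eomes, regulators of progenitors and newborn neurons, had 1 and 2 UMIs in the 76 cells, ratios of -4.78 (-10.1 to -2.30) and -3.70 (-6.75 to -1.84). Both passed the filter only through the other excitatory cells. Radial precursor markers were also lower in 5 of 6 measured genes and higher in 0, with a median of -1.68, though only 4 reached 10 CPM in both groups, of which 3 were lower. Immediate early and stress genes, which dissociation can alter, were lower in 4 of 11 and higher in 0, with Jun at -1.08 (-1.69 to -0.53) and Fos at -0.95 (-2.18 to 0.04).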

How the data were processed

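The authors deposited unnormalised UMI counts for each gene in each barcode, made with Cell Ranger 4.0.0 per the file headers and against mm10 per the submitters' processing notes; the deposited gene and barcode files hold names, a type recorded as other. Settings for cell calling, not given in the sources used here, decide which barcodes the matrix holds. Of 2922 E18 barcodes with 19986915 UMIs, 2631 had 500 or more genes and at most 10% mitochondrial UMIs. The libraries shared 0 barcodes.

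The cells and gene lists were chosen with earlier results of these data known. Counts were summed over cells, scaled to CPM, and compared with exact conditional, Poisson and Clopper-Pearson 95% intervals (scipy 1.17.1), which cover counting error only; the ratio code was tested on simulated data. A group with 0 UMIs was set to a floor of 3. Genes needed a mean of 10 CPM over the 2 groups to be counted in a list. Named genes were the 12 highest and 12 lowest of 50 CPM or more by the interval bound nearest 0, without rule, mitochondrial, ribosomal, haemoglobin, sex-linked and predicted genes. In lists, the 4 largest ratios were named, and for the corticothalamic, subplate and gate-relative lists all genes; others (such as Fezf2, Ntsr1, Syt3 and Npy) were named after their values were seen. Some genes of the lists and rankings enter the counts and sums and are not reported here by name. Comparison groups needed 2 of 5 fixed markers and at most 1 gate marker. Inhibitory reference cells had 3 or more UMIs of Gad and Dlx genes and 0 of Neurod2 and Neurod6, 251 cells. Neighbours used scanpy 1.11.5 (2000 variable genes, 30 components). Doublets were kept: Scrublet called 7 cells (0.266%), none gated, too few for a working call. Coordinates are from GENCODE M21 on GRCm38. TMM factors came from edgeR 4.0.16.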

Additional observations from a re-analysis of the deposited data

Results flagged for a closer look

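Cells passing the same rule were also counted in the P2 library, which no comparison above uses. There 20 of 256 excitatory cells passed, or 7.81% (4.84 to 11.8), and the result is given here because it lies outside the main library. The count shows only that cells pass the rule, not that they are corticothalamic. EYFP was seen in 19 of the 20 cells, 95% (75.1 to 99.9), in 209 of the 236 other excitatory cells, 88.6% (83.8 to 92.3), and in 31.4% (29.2 to 33.6) of 1769 inhibitory reference cells, at median depths of 14031.5, 13745.5 and 12473 UMIs. Tle4 stood at 109 CPM in them and Syt6 at 68.3, while Hs3st4 had 1 UMI, Crym 0 and Fezf2 1. Foxp2 was at 43.7 CPM against 63.4 in the other P2 excitatory cells, Sox5 at 90.1 against 90.2 and Tbr1 at 210 against 191, and 0 of the 20 held 4 or more subplate genes. Age, dissection, mouse line and library cannot be told apart between the libraries.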

How the results depend on the processing

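The population size followed the rule on excluding markers. Its share was 2.79% with 3 or more gate markers, 0.349% (7 cells) with 0 excluding markers, 8.87% with no limit on them, and 7.08% with Rprm left out of them, an alternative chosen after seeing the data. So was leaving out the 11 cells with 4 or more subplate genes.

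The summed ratio of the corticothalamic factors was 0.49 with 3 or more gate markers, 0.48 with Crym left out of the gate, 0.31 with no limit on excluding markers, 0.61 with the rule applied to thinned cells, 0.29 with TMM, 0.35 as a mean over cells, 0.54 against cells matched in depth and 0.50 without the 11 cells. For upper-layer genes it was -1.58 with 3 or more gate markers, -1.57 with TMM, -1.35 as a mean over cells and -1.53 against cells with 0 gate markers, beside -1.45. For layer 5 genes, 0.88 became 0.76 with 3 or more gate markers, 0.16 with 0 excluding markers, 1.21 with no limit, 0.76 thinned, 0.76 with TMM, 1.13 against cells with 0 gate markers and 1.10 without Rprm in the rule. For subplate genes, 2.90 became 3.90 with 0 excluding markers, 1.96 with no limit, 2.07 thinned, 2.43 as a mean over cells, 2.28 without Rprm and 1.61 without the 11 cells. All 4 sums kept their sign in these settings.

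Genes 1.5-fold higher were 3793 of 8223 (46.1%) with 0 excluding markers, beside 16.3% in the main run, and lower genes 1084 (13.2%). With only 7 cells, the floor of 3 UMIs could by itself count a gene at 0 UMIs as higher. Of 3188 genes averaging 50 CPM or more, 357 (11.2%) were higher and 182 (5.71%) lower. Of 12229 genes with a UMI in both groups and no filter, 3155 (25.8%) were higher and 1621 (13.3%) lower. With 0 excluding markers, several sums changed sign: axon guidance 0.045, Groucho 0.053, thyroid and retinoid genes -0.36, stress genes 0.018 and inhibitory markers 0.12. Only 7 cells made up these sums, and all 5 intervals lay across 0; the cause was not tested further. Where a group had 0 UMIs no ratio was computed, which left oligodendrocyte markers out of every setting. Of 357 values of the 24 ranked genes over 15 settings, 278 stayed within their interval, 79 moved and 0 changed sign, and 3 more had 0 UMIs in the gated cells. The 24 genes were ranked by intervals far from 0 in largely the same cells, so the kept signs are a description only. Doublet scoring dropped 4 gated cells in its alternative. No paired analysis was possible because each age had 1 library. Depth limits low genes most: Cplx3, Moxd1 and Inpp4b rest on 13, 1 and 3 UMIs.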

Other observations

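The gated cells were also compared by Crym, a marker the rule used: a cell with Crym needed 1 further gate marker and a cell without it needed 2, so these values are a description. The 30 cells with a Crym UMI had 10 UMIs of Nxph4 and 0 of Ctgf, and the 46 without had 78 and 34. All 11 cells with 4 or more subplate genes were among those without Crym. They held 47 of the 88 Nxph4 UMIs and 30 of the 34 Ctgf UMIs, so this split overlaps the split by subplate genes. Nxph4 was 39.5 against 201 CPM, a log2 ratio of -2.35 (-3.47 to -1.39). Bcl11b was higher in the cells with Crym, 375 against 211 CPM, a ratio of 0.83 (0.38 to 1.27). Tbr1 stood at 264 and 263 CPM. Median depth was 8089 UMIs with and 7689 without Crym.

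The 56 cells with 3 or more gate markers had less Fezf2 than the 20 with 2, 124 against 283 CPM, a ratio of -1.19 (-1.77 to -0.60). The 56 cells had more Nxph4, 1.62 (0.62 to 2.80). The 11 subplate-gene cells, with 47 of the 88 Nxph4 UMIs and 35.8 CPM of Fezf2, were not set apart here. Bcl11b and Tbr1 had intervals across 0 in this split.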
